A study of Mus musculus with 8 samples.

Results

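Most of the genes described here encode parts of the ciliary axoneme. They are the genes of the count table whose symbol is Cfap, Rsph, Drc or Spag followed by a digit, with Wdr78 and Mlf1 added. The annotation used for names holds 57 such symbols, and 55 of them had a row among the 37310 genes of the table (Cfap73 and Cfap99 had none). Wdr78 and Mlf1 were added because they stood out in the comparison of genotypes, and the set as a whole was proposed with that comparison and the spread among wild-type (WT) libraries in view. The genotype difference and the WT spread of these genes are therefore given as descriptions: no p is printed for a single member, and which members passed the threshold of the fit over all genes is stated beside the share of all genes that did, and supports nothing further.

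The libraries are bulk hippocampal RNA of 4 Nr2f1 heterozygous knockout mice (heterozygotes) and 4 WT mice. Nr2f1 encodes a nuclear receptor with roles in cortical and hippocampal development. Both groups were B6.129 F1 hybrids, untreated, labelled male and 3 months old. Each library came from a separate animal, and the labels do not describe the knockout allele beyond the genotype. Nr2f1 itself lay between 49.49 and 54.14 CPM in WT and between 28.49 and 33.52 CPM in heterozygotes, where CPM is the read count scaled to the TMM-normalised library size. The sex label went against the data in all 8 libraries: Xist lay between 463.2 and 601.4 CPM, and the 14 Y-linked genes of the table had 3 counts in total. Libraries held 58717305 to 90043971 gene counts, and the labels state that spike-in mix 1 or 2 was added without saying to which library. The ratio of the spike-ins ERCC-00130 and ERCC-00002 was 1.204 to 1.281 in libraries 1 and 3 of each genotype and 0.165 to 0.186 in libraries 2 and 4, from which a different mix in the odd- and even-numbered libraries is inferred here. Summed markers of hippocampal neurons, 10 genes, lay between 7019 and 7840 CPM in WT and between 6567 and 7631 CPM in heterozygotes, and Wfs1 and Rbfox3 among them were lower, at log2 fold changes of -0.24 and -0.13 (edgeR adjusted p = 0.0362 and 0.0396). Summed astrocyte markers, 6 genes, lay between 4742 and 5031 CPM in WT and between 4400 and 4663 CPM in heterozygotes, without overlap. Slc1a2 was the largest part of that sum, with means of 3509 CPM in WT and 3190 CPM in heterozygotes. It was the only 1 of the 6 without overlap. In edgeR 0 of the 6 passed the threshold and 3 had an unadjusted p under 0.05, and 2 passed in the DESeq2 Wald test. The 3 were Slc1a2, Fgfr3 and Aqp4, at log2 fold changes of -0.14, -0.19 and 0.11. No gene of either list was at 0.

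A motile cilium beats because dynein arms slide the microtubule doublets of its axoneme against each other. Radial spokes reach inward from each doublet to the central pair of microtubules and pass mechanical signals to the arms. The nexin-dynein regulatory complex links neighbouring doublets and turns sliding into bending. Proteins bound inside the doublet wall stiffen it, and a further set of cytoplasmic proteins builds the dynein arms before they are carried into the cilium. In the adult brain, motile cilia are carried by ependymal cells, which line the ventricles, and the choroid plexus epithelium also bears tufts of cilia. Hippocampal neurons and astrocytes carry a single primary cilium without the motility apparatus. In bulk tissue, a difference in the number of ciliated cells and a difference in RNA per cell cannot be told apart.

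Transcription of motile cilium genes is driven by RFX factors, which bind a motif that often occurs in inverted pairs, and by the forkhead factor FOXJ1. RefSeq promoters on GRCm38.p6, 250 bases before to 50 bases after each start, were matched by symbol for 41 of the 55 genes. The RFX motif GTTGCC, read on either strand (GGCAAC on the other), was present in 17 of these 41 genes, or 41.5%. It was present in 15.1% of the 12365 tested genes with a promoter, and in 12.5% of all 32851 promoters. A gene with several promoters was counted once, by a match in any of them, while the share of all promoters counts each promoter. It was present in 6 of the 17 genes higher in heterozygotes by the threshold given below (35.3%) and in 11 of the 22 tested and not past it (50%). The forkhead core GTAAACA, on either strand, was present in 3 of 41, or 7.32%, against 3.11% of the tested genes with a promoter and 3.65% of all promoters. The 2 motifs do not overlap in the stretches printed below. A match is a description of the letters and not of binding. The 5 stretches below, the 250 bases before the start with the RFX motif in capitals, show single and paired motifs in genes from different roles, and the capitals in Mlf1 also mark its forkhead core on the other strand.

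Upstream stretches, 5′ to 3′ on the strand of the gene, from RefSeq on GRCm38.p6, with RFX motifs and the forkhead core in capitals:
Mlf1 (chr3:67373847-67374096, plus strand): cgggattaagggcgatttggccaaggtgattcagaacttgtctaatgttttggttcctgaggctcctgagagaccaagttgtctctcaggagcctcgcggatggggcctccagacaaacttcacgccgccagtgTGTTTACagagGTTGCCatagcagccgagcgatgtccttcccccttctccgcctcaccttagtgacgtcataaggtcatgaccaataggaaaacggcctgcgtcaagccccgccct
Cfap161 (chr7:83794840-83795089, minus strand): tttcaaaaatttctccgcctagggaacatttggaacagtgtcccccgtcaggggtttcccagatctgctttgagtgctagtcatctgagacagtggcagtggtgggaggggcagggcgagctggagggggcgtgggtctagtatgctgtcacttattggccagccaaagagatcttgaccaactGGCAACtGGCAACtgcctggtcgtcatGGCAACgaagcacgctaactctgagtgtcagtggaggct
Cfap44 (chr16:44394549-44394798, plus strand): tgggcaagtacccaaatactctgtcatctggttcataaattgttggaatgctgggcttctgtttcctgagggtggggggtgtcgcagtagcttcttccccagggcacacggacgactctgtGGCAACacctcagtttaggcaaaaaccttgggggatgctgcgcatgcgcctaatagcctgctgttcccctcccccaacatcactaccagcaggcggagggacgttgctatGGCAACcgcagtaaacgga
Spag16 (chr1:69826720-69826969, plus strand): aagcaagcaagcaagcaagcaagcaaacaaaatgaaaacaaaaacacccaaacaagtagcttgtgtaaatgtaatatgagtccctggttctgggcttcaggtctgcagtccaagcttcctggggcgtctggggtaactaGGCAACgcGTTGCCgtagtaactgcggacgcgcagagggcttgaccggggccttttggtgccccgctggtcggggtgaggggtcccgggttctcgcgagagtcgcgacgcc
Cfap298 (chr16:90934850-90935099, minus strand): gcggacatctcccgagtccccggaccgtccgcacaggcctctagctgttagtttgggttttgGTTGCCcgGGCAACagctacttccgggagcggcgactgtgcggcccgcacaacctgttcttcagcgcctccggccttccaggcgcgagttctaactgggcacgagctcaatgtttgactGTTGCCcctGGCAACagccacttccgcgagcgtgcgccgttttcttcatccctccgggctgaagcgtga

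Mlf1 has an RFX motif 105 bases before the start and the forkhead core 116 bases before it. Cfap161 carries RFX motifs 66, 59 and 39 bases before its start, and Cfap44 carries them at 129 and 19. Spag16 has a pair in opposite orientation at 111 and 103 bases. Cfap298, which encodes a factor for dynein arm assembly, has 2 such pairs, at 188 and 180 and at 69 and 60 bases before the start. Of these 5 genes, the first 3 passed the threshold between genotypes and Spag16 and Cfap298 did not, so the motif was present on both sides of it.

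Of the 55 genes, 50 had enough counts to be tested. Cfap97d1 had 0 counts in every library, which allows up to 3 counts in each, or 0.0332 to 0.051 CPM by library. Rsph6a, a sperm-type paralog of the spoke head gene Rsph4a, had 56 counts over the 8 libraries, and Spag17os, transcribed opposite Spag17, had 46. Spag11a and Spag11b, defensin-like genes of the epididymis, had 6 and 2 counts. Of the 50 tested, 22 were higher in heterozygotes past an adjusted p of 0.05 (edgeR quasi-likelihood test, Benjamini-Hochberg over 17913 genes) and 0 were lower. Over all genes tested, 2.62% were higher and 0.368% lower by the same threshold, 2.99% in all. Since the genotype difference was used in choosing the genes, the 22 are described and not read as a result. They are referred to below as called. The median log2 fold change of heterozygotes over WT was 0.38 over the 50 and -0.0056 over all genes, and 44 of the 50 lay above 0. Without single libraries the number called was as low as 11 (WT library 1), 9 (WT library 3) and 9 (heterozygote library 4). With scaling by the spike-ins it was 10, where 1.03% of all genes were higher. That scaling carries the difference in mix inferred above. Each of the 22 lay above 0 under every alternative run.

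**Figure D1:**
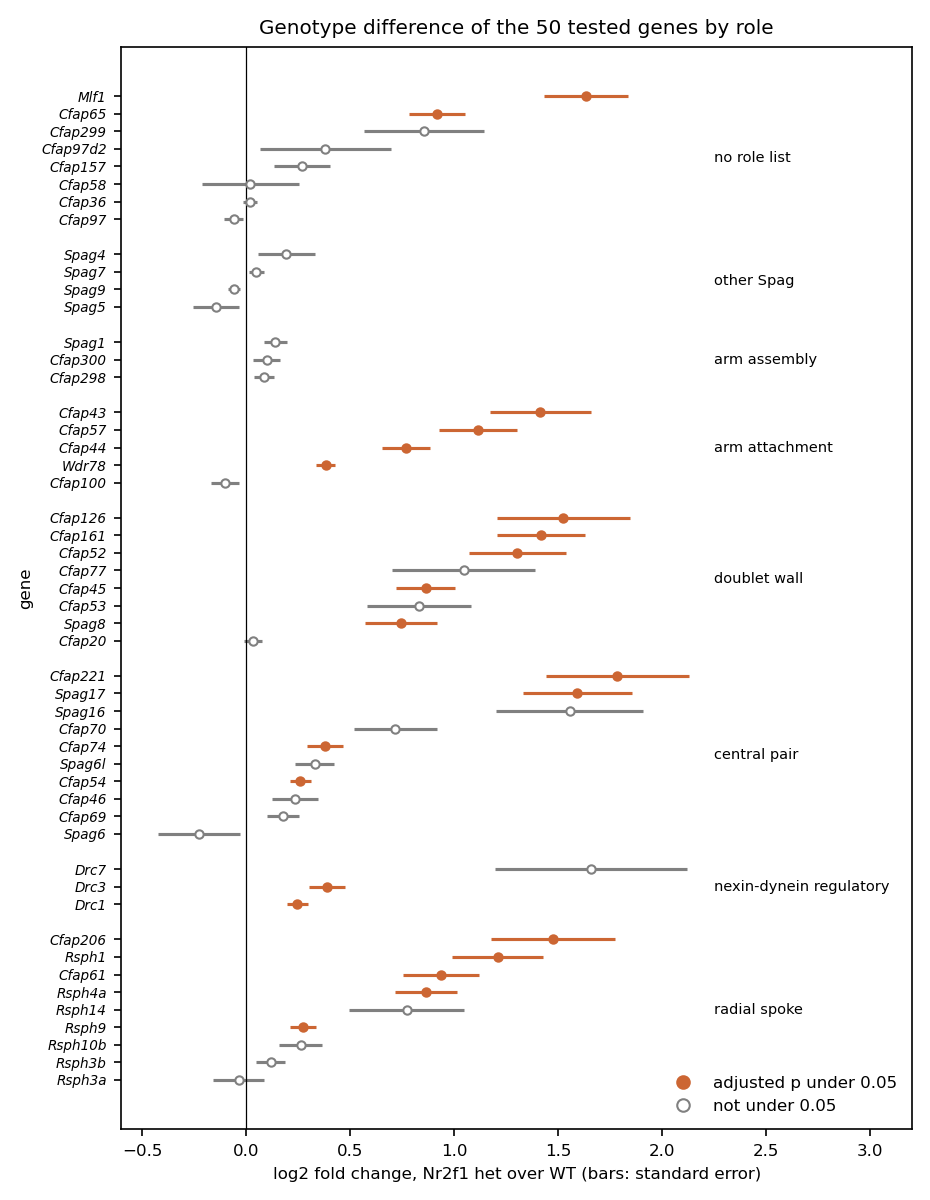
Log2 fold change of heterozygotes over WT for the 50 tested genes (x axis), with bars of 1 standard error, grouped by role; filled points passed the adjusted p threshold. Doublet wall genes have a median of 0.95 and arm assembly genes a median of 0.098.

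The spoke genes differed widely among themselves. Of 9 tested radial spoke genes, 5 were called, with a median log2 fold change of 0.77. Rsph1 (ENSMUSG00000024033.8, chromosome 17), a spoke head gene, was at 2.43, 4.24, 2.33 and 4.59 CPM in WT, libraries 1 to 4 in that order here and below, and at 7.22, 8.15, 6.80 and 9.62 CPM in heterozygotes. The genotypes did not overlap, and WT libraries 1 and 3 were the lowest of the 8. The log2 fold change was 1.21 ± 0.217 (SE). Rsph4a, another spoke head gene, was at 4.03, 4.85, 3.57 and 6.15 CPM in WT and 8.65, 7.94, 7.73 and 9.88 CPM in heterozygotes, a log2 fold change of 0.86 ± 0.149 (SE). It showed the same order of WT libraries, with 3 and 1 lowest. Rsph9, the third spoke head gene, was at 10.7, 10.2, 9.93 and 11.2 CPM in WT and 12.9, 12.3, 12.1 and 13.6 CPM in heterozygotes. That is a log2 fold change of 0.27 ± 0.0624 (SE), smaller than for the other spoke head genes, but again with no overlap. Per kilobase of transcript Rsph9 was the most abundant Rsph gene, at 7.25 CPM per kb against 4.13 for Rsph1 and 1.81 for Rsph4a.

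The spoke stalk genes Rsph3a and Rsph3b, mouse copies of RSPH3, overlapped between genotypes. Rsph3a was at 2.92, 2.94, 3.55 and 3.06 CPM in WT and 3.79, 2.72, 2.74 and 3.07 CPM in heterozygotes, and Rsph3b at 6.14, 6.71, 6.77 and 6.85 CPM in WT and 7.46, 7.54, 6.75 and 7.08 CPM in heterozygotes. Of the 50-base stretches of Rsph3b transcripts, 69.2% occur in another gene, 54.3% in Rsph3a, so reads of the 2 copies can be split or lost in counting. Rsph10b, whose role in the spoke is less settled, was at 2.73, 2.85, 2.43 and 2.69 CPM in WT and 2.80, 3.44, 3.197 and 3.32 CPM in heterozygotes, with overlap. It shares exon positions with Pms2, and counting cannot assign the shared part. Rsph14 was the least abundant spoke gene tested, at 0.173, 0.207, 0.213 and 0.300 CPM in WT and 0.340, 0.339, 0.365 and 0.493 CPM in heterozygotes, without overlap and with a log2 fold change of 0.77 ± 0.278 (SE). Cfap61 and Cfap206, subunits at the base of the spokes, were called with log2 fold changes of 0.94 and 1.48, and the lowest library of each was WT library 1 or 3.

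**Figure D2:**
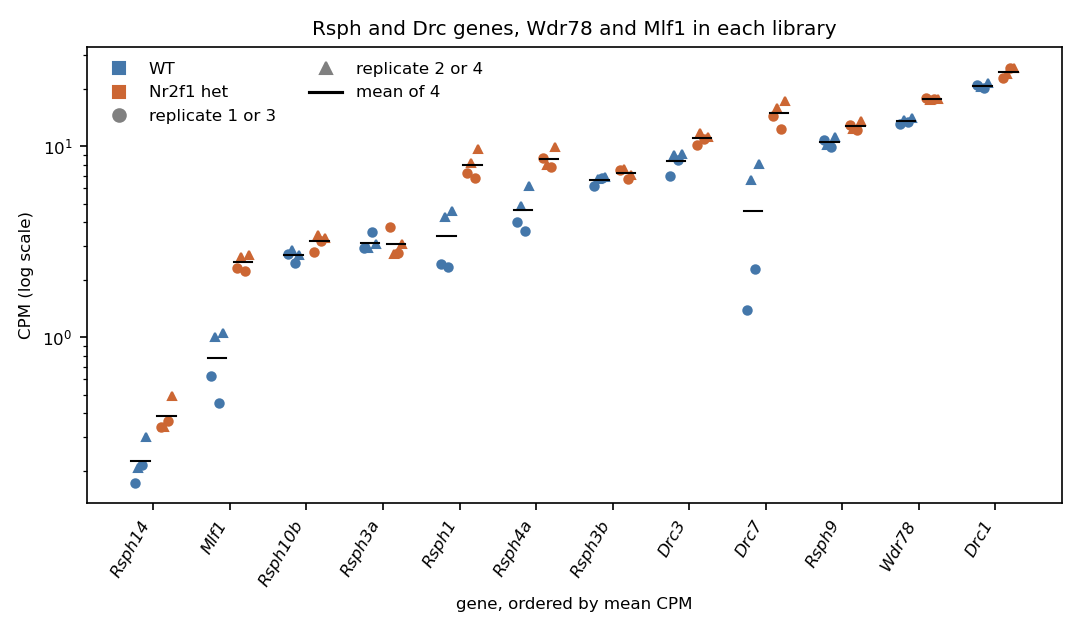
CPM on a log scale (y axis) of the tested Rsph and Drc genes, Wdr78 and Mlf1 in each of the 8 libraries; circles are libraries 1 and 3, triangles libraries 2 and 4, lines the mean of 4. Drc7 spans 1.39 to 17.1 CPM, while Wdr78 stays between 13.02 and 17.8 CPM.

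The 3 tested Drc genes, which encode part of the nexin-dynein regulatory complex, lay far apart in their spread. Further subunits fall outside the naming rule and are given with the docking and ruler genes below. Drc1, a core scaffold subunit, was at 20.9, 20.3, 20.1 and 21.4 CPM in WT and 22.7, 23.9, 25.7 and 25.6 CPM in heterozygotes. Drc3 was at 6.98, 8.96, 8.44 and 9.13 CPM in WT and 10.1, 11.7, 10.9 and 11.2 CPM in heterozygotes. Both were called, at log2 fold changes of 0.24 ± 0.0502 and 0.39 ± 0.0844 (SE), and in neither did the genotypes overlap. Drc7 (ENSMUSG00000031786.6, chromosome 8), another subunit, was at 1.39, 6.64, 2.27 and 8.04 CPM in WT and 14.3, 15.8, 12.3 and 17.1 CPM in heterozygotes. Its log2 fold change of 1.66 ± 0.461 (SE) was the second highest of the 50, and it was not called. WT libraries 2 and 4 exceeded WT libraries 1 and 3 by 4.02-fold, and the heterozygotes exceeded WT libraries 2 and 4 by 2.03-fold, so for Drc7 the distance inside WT was larger than the distance from the higher WT pair to the heterozygotes. The summed choroid plexus markers, 12 genes, ran 84.5, 1446, 446.3 and 2117 CPM in WT, the same order as Drc7, and from 4109 to 4645 CPM in heterozygotes. Their part in the Drc7 values was not tested.

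Of 10 tested central pair genes, 4 were called and the median log2 fold change was 0.35. Spag16, a central apparatus protein, was at 0.346, 1.79, 0.589 and 1.41 CPM in WT and 2.46, 3.32, 2.82 and 3.82 CPM in heterozygotes. The genotypes did not overlap, WT libraries 1 and 3 were lowest, and the gene was not called (log2 fold change 1.55 ± 0.354, SE). Spag6l, another central apparatus gene, also had WT libraries 1 and 3 lowest, no overlap, and a smaller range. Spag6l was at 5.96, 7.04, 5.97 and 6.89 CPM in WT and 7.56, 8.21, 7.41 and 9.32 CPM in heterozygotes, a log2 fold change of 0.33 ± 0.0925 (SE), and it was not called. Spag6, its near copy, was at 1.57, 1.22, 1.37 and 0.823 CPM in WT and 1.14, 1.03, 1.01 and 1.06 CPM in heterozygotes, with overlap, and its log2 fold change of -0.23 ± 0.196 (SE) was the lowest of the 50 and turned to 0.04 without WT libraries 1 and 3. Spag6 shares 6.21% of its 50-base stretches with other genes, mostly Gm20539 on the opposite strand (5.67%). Spag6l shares 0.391% of its stretches with Spag6. Spag17, a large scaffold of the central pair, and Cfap221 were called at log2 fold changes of 1.59 and 1.78, both below 2 CPM in every library, and exons of Spag17 overlap Wdr3 and Spag17os on the other strand.

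Cfap54, Cfap74 and Cfap69, also of the central apparatus, differed less. Cfap54 was at 31.1, 33.1, 30.5 and 32.3 CPM in WT and 35.3, 36.1, 39.5 and 41.0 CPM in heterozygotes, with a log2 fold change of 0.26 ± 0.0518 (SE). It was called, as was Cfap74, at 0.38 ± 0.0861 (SE). Cfap69 was at 11.97, 11.8, 9.90 and 12.8 CPM in WT and 12.1, 13.5, 13.4 and 13.6 CPM in heterozygotes. These values overlapped, with heterozygote library 1 inside the WT range. Cfap69 is also known from olfactory neurons, so its RNA is not limited to motile cilia. Cfap46 and Cfap70, further central pair genes, had log2 fold changes of 0.24 ± 0.11 and 0.72 ± 0.198 (SE) and were not called.

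Genes of the doublet wall had the highest median of the roles, 0.95, and 5 of 8 tested were called. Cfap126, known as Flattop, was at 0.626, 1.90, 0.865 and 2.28 CPM in WT and 4.40, 3.99, 3.30 and 5.23 CPM in heterozygotes. WT libraries 2 and 4 exceeded libraries 1 and 3 by 2.80-fold, and the heterozygotes exceeded WT libraries 2 and 4 by 2.02-fold. Spag8 was at 1.47, 1.75, 1.43 and 2.07 CPM in WT and 2.31, 2.31, 3.08 and 3.503 CPM in heterozygotes. Both were called, at log2 fold changes of 1.52 ± 0.321 and 0.74 ± 0.172 (SE). Cfap161, Cfap52 and Cfap45 were also called, at 1.42, 1.30 and 0.86. Cfap53 and Cfap77 had log2 fold changes of 0.83 and 1.04, and both were under 1 CPM in every library and not called. Cfap20, a doublet wall protein found in primary cilia as well, was the most abundant of this role per kilobase, at 6.93 CPM per kb, and the one nearest to 0 in its difference. It was at 30.8, 29.3, 31.3 and 30.7 CPM in WT and 29.8, 30.1, 32.8 and 32.0 CPM in heterozygotes, a log2 fold change of 0.03 ± 0.0437 (SE).

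Of 5 genes that attach or tether inner dynein arms, 4 were called. Wdr78 (ENSMUSG00000035126.12, chromosome 4), an intermediate chain of an inner arm, was at 13.02, 13.6, 13.3 and 14.0 CPM in WT and 17.8, 17.4, 17.5 and 17.6 CPM in heterozygotes. The 4 values inside each genotype lay within 1.07-fold of each other, and the log2 fold change was 0.38 ± 0.0463 (SE), or 1.30-fold. Wdr78 exons overlap Mier1 on the opposite strand. Cfap44, part of the tether of that arm, was at 8.82, 11.5, 9.16 and 12.96 CPM in WT and 16.7, 16.9, 19.5 and 19.3 CPM in heterozygotes, at 0.77 ± 0.116 (SE). Its partner Cfap43 was called at 1.41 and Cfap57 at 1.11. Cfap100 was the fifth and ran the other way, at 16.1, 14.9, 16.3 and 14.0 CPM in WT and 13.9, 13.3, 14.0 and 15.8 CPM in heterozygotes, with overlap and a log2 fold change of -0.10 ± 0.0676 (SE). Its exons overlap Zxdc on the opposite strand, but 0% of its 50-base stretches occur in another gene.

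None of the 3 dynein arm assembly genes was called. Cfap298 was at 21.9, 23.1, 23.6 and 24.5 CPM in WT and 25.7, 23.2, 25.1 and 24.9 CPM in heterozygotes. Cfap300 was at 14.5, 11.65, 13.6 and 12.9 CPM in WT and 14.3, 13.8, 14.0 and 14.2 CPM in heterozygotes. Both overlapped between genotypes. Their log2 fold changes were 0.08 ± 0.049 and 0.10 ± 0.0654 (SE). Cfap298 shares 36.0% of its 50-base stretches with other genes, mostly the gene model Gm49727. Spag1, a chaperone partner, was at 9.97, 10.2, 9.93 and 10.2 CPM in WT and 11.2, 10.8, 10.7 and 11.6 CPM in heterozygotes, without overlap and with a log2 fold change of 0.14 ± 0.0551 (SE).

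The name of the Spag family comes from sperm antigens and not from the axoneme, and 4 tested Spag genes have other roles. Spag9, a motor adaptor and kinase scaffold of many cell types, was at 392.3, 381.8, 387.8 and 397.6 CPM in WT and 368.6, 381.7, 371.1 and 377.1 CPM in heterozygotes. It was the only one of the 50 with every heterozygote library below every WT library, which 3.59% of all genes tested showed. Its log2 fold change was -0.06 ± 0.0294 (SE) and 0.04 with spike-in scaling, a scaling that moved the median of all genes from -0.0056 to 0.091. Spag7 was at 30.7, 31.4, 30.6 and 31.9 CPM in WT and 30.9, 32.6, 32.6 and 32.6 CPM in heterozygotes, with heterozygote library 1 inside the WT range. Spag5, a spindle protein of dividing cells, was at 13.07, 11.76, 10.45 and 13.25 CPM in WT and 8.734, 10.95, 12.98 and 10.8 CPM in heterozygotes, with overlap and a log2 fold change of -0.15 ± 0.111 (SE). Spag4, a nuclear envelope protein, had a log2 fold change of 0.19 ± 0.137 (SE). Per kilobase Spag9 was the most abundant of all 55 genes, at 34.1 CPM per kb, followed by Cfap36 at 26.7 and Spag7 at 21.4. Cfap36, a cilium protein that is not limited to motile cilia, had a log2 fold change of 0.02 ± 0.0336 (SE).

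Mlf1 (ENSMUSG00000048416.9, chromosome 3), named for a leukaemia fusion gene, was at 0.626, 1.00, 0.451 and 1.05 CPM in WT and 2.31, 2.63, 2.22 and 2.70 CPM in heterozygotes. The heterozygotes lay above every WT library, at 3.103 times the WT mean, and at 2.41 times the mean of WT libraries 2 and 4. Its log2 fold change was 1.63 ± 0.203 (SE). Of the 8 tested genes placed in no role, Mlf1 and Cfap65, a gene of the sperm flagellum, were the 2 called, the latter at 0.92 ± 0.137 (SE). Cfap299 was at 0.493, 0.726, 0.489 and 0.634 CPM in WT and 0.765, 1.07, 0.730 and 1.68 CPM in heterozygotes, with library 4 well above the rest, and its log2 fold change was 0.86 with all libraries and 0.53 without heterozygote library 4. Cfap157, a basal body gene, and Cfap97d2 had values of 0.27 and 0.38, and the latter turned to -0.10 without WT libraries 1 and 3. Cfap58 and Cfap97 lay at 0.02 and -0.06, and their sign changed under some alternatives.

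**Figure D3:**
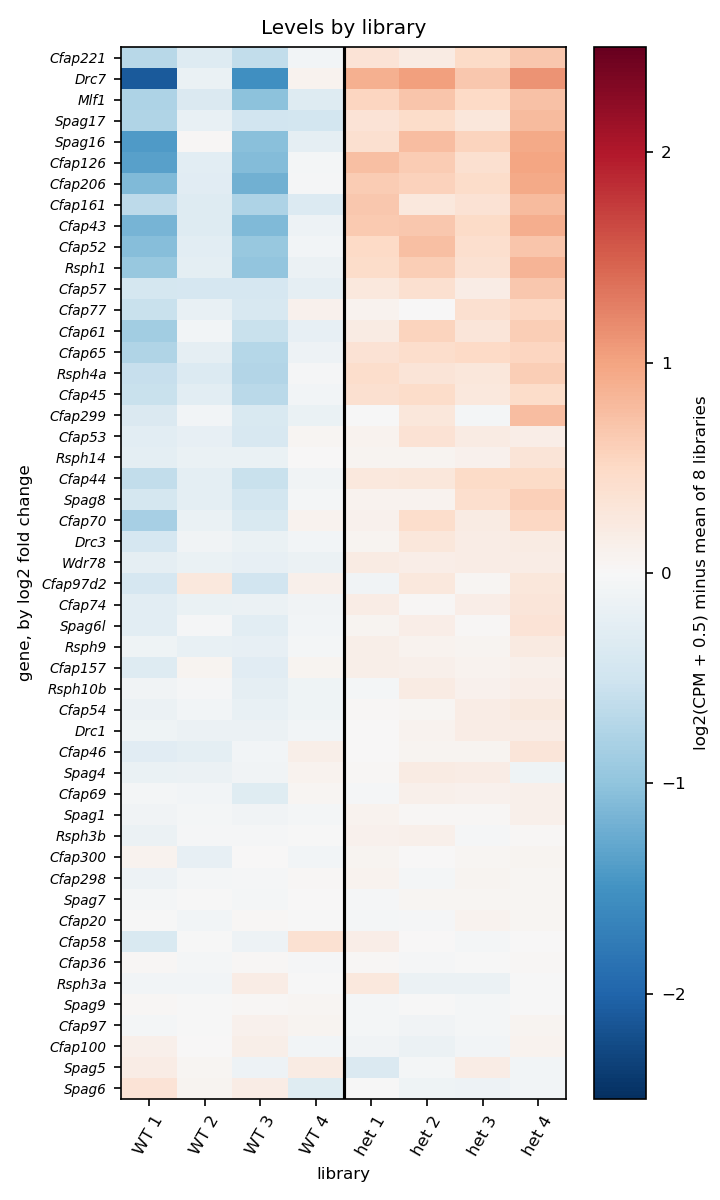
Log2(CPM + 0.5) of the 50 tested genes (rows, by log2 fold change) in the 8 libraries (columns), each gene centred on its mean over the libraries. WT libraries 1 and 3 are the darkest blue for the genes at the top, with Drc7 the most extreme.

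The spread inside WT followed the same libraries in many of these genes. WT libraries 1 and 3 both lay below WT libraries 2 and 4 in 31 of the 50, or 62.0%, against 21.2% of all genes tested. The lowest of the 8 libraries was WT library 1 for 24 genes, WT library 3 for 17, WT library 2 for 3, WT library 4 for 1 and a heterozygote library for 5. Among WT libraries the highest exceeded the lowest by 1.5-fold or more in 22 of 50 (44.0%), against 21.7% of all genes, and among heterozygote libraries in 10 of 50 (20%), against 22.0%. The median ratio of highest to lowest was 1.43 in WT and 1.24 in heterozygotes, against 1.15 and 1.17 over all genes. In 31 of 50 every heterozygote library lay above every WT library, which 6.99% of all genes tested showed. The WT spread is part of how the genes were chosen, so these shares are descriptions. Libraries 1 and 3 also share the higher spike-in ratio, and in WT the inferred mix and the animals cannot be told apart.

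**Figure D4:**
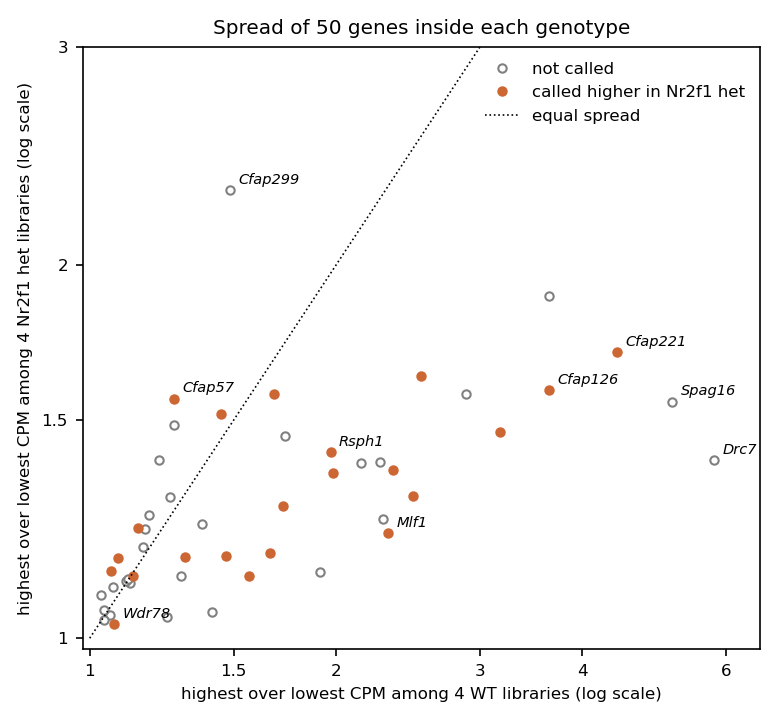
Ratio of the highest to the lowest CPM among the 4 WT libraries (x axis, log scale) and among the 4 heterozygote libraries (y axis, log scale) for the 50 tested genes; the dotted line marks equal spread. Most genes with a wide spread lie under the line, with Drc7 farthest right, and Cfap299 is the highest on the y axis.

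Within the odd-numbered libraries, 17 of the genes were called, where 2.9% of all genes were higher, and within the even-numbered ones 7, where 0.396% were. For Drc7 the log2 fold change was 2.85 among odd and 1.16 among even libraries, for Spag16 2.51 and 1.16, and for Rsph1 1.56 and 1.01. For Drc1 it was 0.25 in both, and for Rsph9 0.28 in both. A test of the difference between the odd and the even libraries passed for 0 of 17913 genes over all (edgeR interaction term, adjusted p of 0.05), 918 of which (5.12%) had an unadjusted p under 0.05. With spike-in scaling 34 passed, and the other 5 settings gave 0. Among the 50 genes, 11 had an unadjusted p under 0.05, and the difference was larger among odd libraries for 35. The WT spread used in choosing the genes enters this difference, so these counts are descriptions and not a test. Without WT libraries 1 and 3, 10 of the genes were called, where 0.851% of all genes were higher. Of the 22 called, 9 were called there too, namely Cfap126, Cfap206, Cfap43, Cfap44, Cfap52, Cfap65, Mlf1, Rsph1 and Wdr78, and Drc7 was the tenth. Left out singly, no library removed the call of 8 genes, Cfap161, Cfap44, Cfap45, Cfap57, Cfap65, Mlf1, Spag17 and Wdr78.

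Summed markers of ependymal cells, choroid plexus and meninges did not overlap between the genotypes. The summed level of 8 ependymal markers that are not among the 55 genes ran from 15.7 to 27.3 CPM in WT and from 37.6 to 53.4 CPM in heterozygotes. Of these, 5 of 8 were higher past the threshold, against 2.62% of all genes tested, and no marker of the lists named here was at 0. The mean log2 level of those markers ran 0.805, 1.47, 0.860 and 1.33 in WT and 2.08, 2.02, 1.91 and 2.37 in heterozygotes, so WT libraries 1 and 3 were the lowest here too. Summed choroid plexus markers lay between 84.5 and 2117 CPM in WT and between 4109 and 4645 CPM in heterozygotes, with 0 of 12 past the threshold in edgeR, 11 at an unadjusted p under 0.05 and 4 past it in the DESeq2 Wald test. Summed meningeal markers, 7 genes, lay between 89.4 and 231.5 CPM in WT and between 315.8 and 373.2 CPM in heterozygotes. Igf2 was the largest part of that sum, at 43.1 to 156.4 CPM in WT and 229.2 to 271.0 CPM in heterozygotes. Without Igf2 the summed markers of WT library 4 reached the level of heterozygote library 4, so the lack of overlap rests on Igf2. Singly, 4 of the 7 did not overlap between genotypes, while Lum, Slc6a13 and Col1a1 did. In edgeR 0 of the 7 passed the threshold and 4 had an unadjusted p under 0.05, and 3 passed in the Wald test. The part of these cells in the differences described above was not tested.

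The level of each gene was also set against the ependymal marker mean of the same library. For each gene the range of log2(CPM + 0.5) over the 8 libraries was compared with its range after that mean was subtracted. The range narrowed for 21 of 50, among them 16 of the 22 called, and it widened for the other 29. All 21 genes whose own range was over 1 log2 unit narrowed. For Rsph1 the range fell from 1.84 to 0.449, for Cfap161 from 1.56 to 0.370, for Mlf1 from 1.75 to 0.557 and for Spag16 from 2.35 to 0.957. For Drc7 it narrowed less, from 3.22 to 1.90. For Wdr78 it widened from 0.440 to 1.15, for Drc1 from 0.345 to 1.28 and for Spag9 from 0.109 to 1.62. A gene that hardly varies takes on the range of the marker mean when that mean is subtracted, so the comparison is a description of how each gene varied and not a test.

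**Figure D5:**
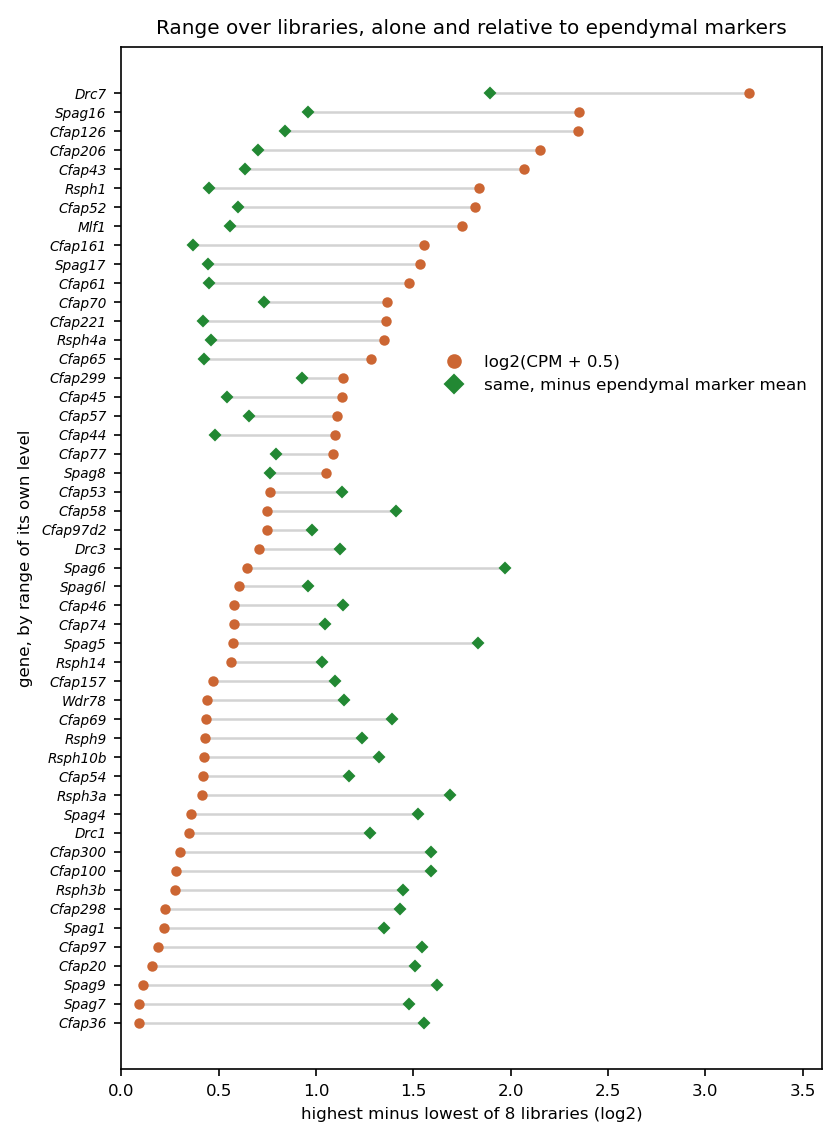
Highest minus lowest of the 8 libraries (x axis, log2 units) for each of the 50 tested genes, as log2(CPM + 0.5) (circles) and after subtraction of the ependymal marker mean (diamonds). The diamonds lie left of the circles for the 21 genes with the widest own range and right of them for the other 29.

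Genes of the same machinery outside the naming rule were counted in lists drawn up with the earlier results of these data known. The counts are therefore descriptions, to be read beside the 2.62% of all genes tested that were higher in the same fit. Of 15 axonemal dynein genes tested, 6 were higher past the threshold, among them the inner arm heavy chain gene Dnah2 at a log2 fold change of 0.54 (edgeR adjusted p = 0.0126) and the outer arm genes Dnaic2 at 0.82 (edgeR adjusted p = 0.0134) and Dnah11 at 1.58 (edgeR adjusted p = 0.0136). Of 11 docking and ruler genes, 4 were higher, led by Iqcg at 0.89 (edgeR adjusted p = 0.00436). Iqcg encodes a further subunit of the nexin-dynein complex. Other subunits of that complex, Ccdc65, Gas8 and Tcte1, did not pass, at 0.10, 0.003 and -0.11. For Tcte1 every heterozygote library lay below every WT library. The outer arm docking gene Ccdc114 was at 1.24 (edgeR adjusted p = 0.0153). Of 13 tektin and doublet wall genes, 5 were higher, led by Mns1 at 0.82 (edgeR adjusted p = 0.0108). The other 3 central apparatus genes were all higher: Spef2 at 0.94 (edgeR adjusted p = 0.00575), Kif9 at 0.58 (edgeR adjusted p = 0.00749) and Hydin at 1.27 (edgeR adjusted p = 0.0215). None of these lists held a gene past the threshold in the lower direction. Without WT library 1 the dynein count was 3, without WT library 3 it was 0, and without either of these libraries alone the docking count was 2 and the tektin count 1. Over all genes, 210 were higher without WT library 1 and 165 without WT library 3. The tektin count was also 2, 3 and 1 without heterozygote library 2, 3 or 4, where 293, 293 and 255 of all genes were higher. With spike-in scaling the dynein, docking and tektin counts were 3, 2 and 1, where 1.03% of all genes were higher. With the DESeq2 Wald test the dynein count was 12. The central apparatus count was 1 with spike-in scaling and without WT libraries 1 and 3 together, where 0.851% of all genes were higher.

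Of 10 tested regulators of multiciliation, 2 were higher, against 2.62% of all genes tested. They were Trp73 at 0.52 (edgeR adjusted p = 0.0184) and Rfx2 at 0.52 (edgeR adjusted p = 0.0252). Without WT library 1 or 3, or heterozygote library 4, the number was 0 (edgeR), it was 1 without WT library 2 or heterozygote library 1 or 2, and 4 without WT library 4. The DESeq2 Wald test called 6. Of the 10 regulators, 6 lay above 0, and the median log2 fold change was 0.45. Mcidas, Ccno, Rfx3 and Deup1 lay below 0, at -0.48, -0.12, -0.07 and -0.03, each with overlap between genotypes. Foxj1, the forkhead factor of motile cilia and one of the ependymal markers above, was at 5.72, 10.9, 5.99 and 10.1 CPM in WT and 18.0, 16.2, 14.1 and 22.1 CPM in heterozygotes and did not pass (log2 fold change 1.09, edgeR adjusted p = 0.0717). Of 19 genes of primary cilia and intraflagellar transport, 0 passed in edgeR or in the DESeq2 Wald test and 1 had an unadjusted edgeR p under 0.05. Their log2 fold changes lay between -0.078 and 0.12 with a median of 0.014. This list is shared by cells with and without motile cilia, as are Cfap20 and Cfap36 among the genes described, whose log2 fold changes were 0.03 and 0.02.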

How the data were processed

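The authors deposited raw counts of reads for each Ensembl gene in the 8 hippocampal libraries. The submitters' processing notes name STAR 2.4.2a, HTSeq, DESeq2 and FastQC, and the builds NCBIM37 and mm9. Settings, strand handling and annotation: not given in the sources used. The cDNA kit marks no strand. Symbols came from GENCODE on GRCm38 (32620 of 37310 gene identifiers), used only for names, transcript lengths and overlaps; promoters came from RefSeq on GRCm38.p6.

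Counts were filtered (filterByExpr, minimum count 10, total 15), scaled by TMM and fitted over all 17913 genes with edgeR 4.0.16 in R 4.3.3 (robust quasi-likelihood F test), two-sided, at a Benjamini-Hochberg adjusted p of 0.05; the 92 spike-in rows were kept out. Standard errors are the log2 fold change over the root of F. Libraries of a genotype differed beyond counting noise (chi-square per degree of freedom 7.42 to 25.0), and a limit of 3 counts covers counting error only. The members, role lists, marker lists and tests were chosen with earlier results of these data known. Named with all libraries are every tested Rsph and Drc gene, the 3 most abundant per kb of each role, Wdr78, Mlf1 and the 3 highest and 3 lowest fold changes above 1 CPM; others are named as examples after their values were seen. The step was checked on simulated counts, where 71% of changes of 0.6 log2 units and 85.6% of changes of 1 log2 unit passed. Of the genes that passed in the simulation, 7.23% were unchanged. Alternatives were other scalings, the DESeq2 1.42.0 Wald test, other filters, covariates and left-out libraries.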

Additional observations from a re-analysis of the deposited data

Results flagged for a closer look

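In 56 comparisons of a library with the rest of its genotype (28 genes, 2 genotypes), 3 values stood apart by the gap to the nearest of the other 3 libraries over the whole range, beyond Dixon's critical value for 4 values. Chance gives about 1 in 20 groups such a value. Rsph14 was at 0.4934 CPM in heterozygote library 4, above the other 3 heterozygote libraries. Spag7 was at 30.94 CPM and Cfap69 at 12.08 CPM in heterozygote library 1, each below the other 3. Their causes were not tested.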

How the results depend on the processing

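Of the 50 tested genes, 22 were called and 535 of all genes. Scaling by the spike-ins gave 10 and 185 (184 higher), a covariate for the run of animal numbers 9 and 231, the libraries left out singly 9 to 25 and 171 to 767, WT libraries 1 and 3 left out together 10 and 170, and the even-numbered libraries alone 7 and 78. The DESeq2 Wald test called 26 of the genes and 1200 of all (911 higher, 289 lower), and the spike-in scaling gave 34 interaction calls against 0. The spike-in scaling used the summed spike-in counts. These were 0.0431 to 0.0491% of counts in the odd-numbered libraries and 0.0713 to 0.0787% in the even-numbered ones. Since a different mix is inferred for these libraries, that scaling cannot tell the mix from the amount of RNA. The cause of the differences between settings was not tested, and the smaller subsets hold fewer libraries. The other settings left both counts within 1.5 times. The split of all calls by direction was 469 to 66 and moved with the setting. Of 993 values of the 50 genes under alternatives, 80 moved by more than the spread between replicates. A sign change occurred for 8 genes, none of them called, and between 43 and 47 of the 50 lay above 0. Same-numbered libraries did not pair (correlations of their deviations 0.0577, 0.00156, -0.139 and -0.116), and the replicate block gave 22 and 406 calls. With the block the multiciliation regulators went from 2 to 5 calls, the dynein genes from 6 to 9, the docking genes from 4 to 6 and the tektins from 5 to 4. Genes under 1 CPM, 8 of the 50, rest on few counts.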
